A study of Homo sapiens with 54 samples.

Results

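Transcript levels of 10 genes of the NRF2 antioxidant response were measured by RNA sequencing in MDA-MB-231, an established human breast cancer cell line without hormone receptors. The genes were taken by symbol, the only identifier in the deposited table, and were NFE2L2, KEAP1, HMOX1, NQO1, GCLC, GCLM, SLC7A11, TXNRD1, SRXN1 and OSGIN1, or 10 of 27978 genes. All 10 had enough counts to be tested in every comparison, with between 146 (OSGIN1) and 42177 (TXNRD1) counts in a library. The 54 libraries formed 18 groups of 3, described by the submitters as biological replicates, and every group was grown in the same medium with serum. Cells were untreated, with no vehicle named, or received Compound Kushen Injection (CKI), an injectable extract of medicinal roots, at 2 mg/ml, or a mixture rebuilt from fractions of CKI at the equivalent of 2 mg/ml. In batch 1, untreated cells, CKI and 4 mixtures were sampled at 24 and at 48 h. N-OmtOspc was CKI with oxymatrine (Omt) and oxysophocarpine (Ospc) left out, and N-MacOmtOspc also lacked macrozamin (Mac). OmtOspc held only Omt and Ospc, and MacOmtOspc only Mac, Omt and Ospc. Batch 2 was sampled at 48 h only and held untreated cells, CKI and 4 mixtures that each lacked a single compound, N-Mac, N-Omt, N-Nme (without N-methylcytisine) and N-Tri (without trifolirhizin). "Batch" is the word of the sample titles, and what it stands for is not given there. A single cell line was used, and the deposited table gives no coordinates. The mixtures of batch 1 and of batch 2 were never in the same batch, so a difference between them cannot be told apart from a difference between batches.

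NRF2, the protein made from NFE2L2, is a transcription factor that KEAP1 binds and hands over for degradation in unstressed cells. Electrophiles and oxidants modify cysteines of KEAP1, NRF2 then builds up, enters the nucleus with a small MAF protein and binds antioxidant response elements near its targets. Those targets make glutathione (GCLC, GCLM and the cystine transporter SLC7A11), keep thioredoxin and peroxiredoxins reduced (TXNRD1, SRXN1), reduce quinones (NQO1), degrade heme (HMOX1) or act in oxidative stress signaling (OSGIN1). HMOX1 is also held down by the repressor BACH1, which heme removes, and SLC7A11 is also a target of ATF4, so the targets need not move as a block.

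Promoter sequence was looked at as a description of the members, with no test. RefSeq windows of 300 bases (250 before the transcription start and 50 after, build GRCh38.p14) were given for 8 of the 10 genes, 11 windows in all, and not for HMOX1 and SLC7A11. The core of the antioxidant response element, TGACNNNGC on either strand, stood in 4 of these 11 windows, those of KEAP1, GCLM and TXNRD1, and in 4687 of 35116 promoter windows overall (13.3%). The 4 windows are shown because they hold the matches. The windows of NFE2L2, NQO1, GCLC, SRXN1 and OSGIN1, which rose with CKI as GCLM and TXNRD1 did, held none, nor did the other KEAP1 window. Whether a match goes with a direction of change was not tested. Each is written 5′ to 3′ on the gene's strand from 250 bases before the start to 10 bases after it, with matches in capitals, and a match on the opposite strand reads as its reverse complement. No match overlapped another or a match to the other motifs searched. The windows are KEAP1 at chr19:10502762-10503021 (minus strand), GCLM at chr1:93909421-93909680 (minus strand) and TXNRD1 at 2 starts, chr12:104215529-104215788 (plus strand) and chr12:104286782-104287041 (plus strand).
KEAP1: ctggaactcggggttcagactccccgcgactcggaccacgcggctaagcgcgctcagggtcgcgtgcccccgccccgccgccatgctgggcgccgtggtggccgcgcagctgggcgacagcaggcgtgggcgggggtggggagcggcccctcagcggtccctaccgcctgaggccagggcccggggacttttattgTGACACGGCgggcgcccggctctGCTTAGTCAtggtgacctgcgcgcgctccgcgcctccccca
GCLM: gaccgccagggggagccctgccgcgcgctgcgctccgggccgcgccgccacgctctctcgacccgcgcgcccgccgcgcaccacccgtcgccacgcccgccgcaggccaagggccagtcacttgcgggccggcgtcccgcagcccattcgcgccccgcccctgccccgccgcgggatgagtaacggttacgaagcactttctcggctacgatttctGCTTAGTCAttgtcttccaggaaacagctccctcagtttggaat
TXNRD1, upstream start: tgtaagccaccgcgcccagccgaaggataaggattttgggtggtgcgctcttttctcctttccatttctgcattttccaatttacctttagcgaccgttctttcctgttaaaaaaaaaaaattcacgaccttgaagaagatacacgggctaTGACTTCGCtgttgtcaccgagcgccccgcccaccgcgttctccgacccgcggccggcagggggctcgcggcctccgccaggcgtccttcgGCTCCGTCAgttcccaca
TXNRD1, downstream start: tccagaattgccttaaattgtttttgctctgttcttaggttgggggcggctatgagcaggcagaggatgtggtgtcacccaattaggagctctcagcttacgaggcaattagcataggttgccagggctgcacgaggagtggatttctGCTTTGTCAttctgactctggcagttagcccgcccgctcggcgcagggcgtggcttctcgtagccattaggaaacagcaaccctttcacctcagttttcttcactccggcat

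The AP-1 site, TGANTCA, was found in 1 member window (OSGIN1), against 7.71% of all windows. The core of the xenobiotic response element, GCGTG on either strand, was in 9 of the 11 windows and in all 8 genes that had one, against 36.5% of all windows. These are matches of letters in a short window and say nothing about binding, and an element farther from the start would not be seen.

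Total counts ran from 17673537 to 26138924 per library, with a median of 22568666.5. Transcripts that mark MDA-MB-231 were present in every library: VIM at 488 to 1565 CPM (counts scaled to the size of the library by the TMM method), CD44 at 328 to 669 and AXL at 270.1 to 1327. ESR1 stayed at or below 0.333 CPM, PGR 0.0922, the leukocyte markers PTPRC 0.624 and CD3E 0.25, and the fibroblast marker DCN 0.723. COL1A1, another fibroblast marker, was not low, at 8.87 to 65.2 CPM. The other markers looked up, CAV1, MSN, ERBB2, EPCAM, KRT20, COL1A2 and LUM, are not reported here, so these values are a partial check. In batch 1 there were 3 libraries whose titles carry no replicate number in the treatment code, CKI replicate 1, OmtOspc replicate 2 and N-MacOmtOspc replicate 2, all at 24 h. Their difference from the rest of their group followed the difference between untreated cells of batch 2 and batch 1, with slopes of 0.652, 0.58 and 0.598 over 585 genes, against -0.408 to 0.103 in the other 33 libraries of batch 1. N-OmtOspc replicate 3 at 24 h and N-MacOmtOspc replicate 2 at 48 h also stood apart from their groups. Many values that rest on the libraries that stood apart are given with and without them. A value given once comes from all libraries of its fit. Member calls were followed in all comparisons with untreated cells, and elsewhere only where made with all libraries. Among those, leaving out N-OmtOspc replicate 3 changed 3, named with their genes. Leaving out N-MacOmtOspc replicate 2 of 48 h changed none. Calls gained against CKI or between mixtures were not followed by gene. Whether the libraries of a group came from cultures of separate days is not given, so p-values measure the spread between these libraries. In this text a gene was differentially expressed (DE), called higher or lower, at an adjusted p under 0.05 by the quasi-likelihood test of edgeR, adjusted over all genes tested after Benjamini and Hochberg, and each log2 fold change comes from that fit.

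CKI raised 9 of the 10 members at 24 h and at 48 h, by 1.33-fold (NFE2L2) to 5.48-fold (SLC7A11) at 24 h and 1.19-fold (NFE2L2) to 3.54-fold (SRXN1) at 48 h. The exception was KEAP1, which did not pass the test at 24 h and was lower at 48 h. At 24 h 9 members were DE, all of them higher, where of 14245 genes tested 38.7%, 19.3% higher and 19.3% lower, were DE. At 48 h all 10 were DE, 9 higher and 1 lower, where of 14351 genes 71.5%, 35.7% higher and 35.8% lower, were. The median log2 fold change of the members was 1.36 at 24 h and 0.97 at 48 h, and that of all genes tested 0.014 and 0.000705. Without CKI replicate 1, 9 members were still DE at 24 h, as were 53% of all genes. These are bulk samples, in which a change in every cell and a change in a part of the cells cannot be told apart, nor can fewer cells of a kind and less RNA per cell.

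**Figure D1:**
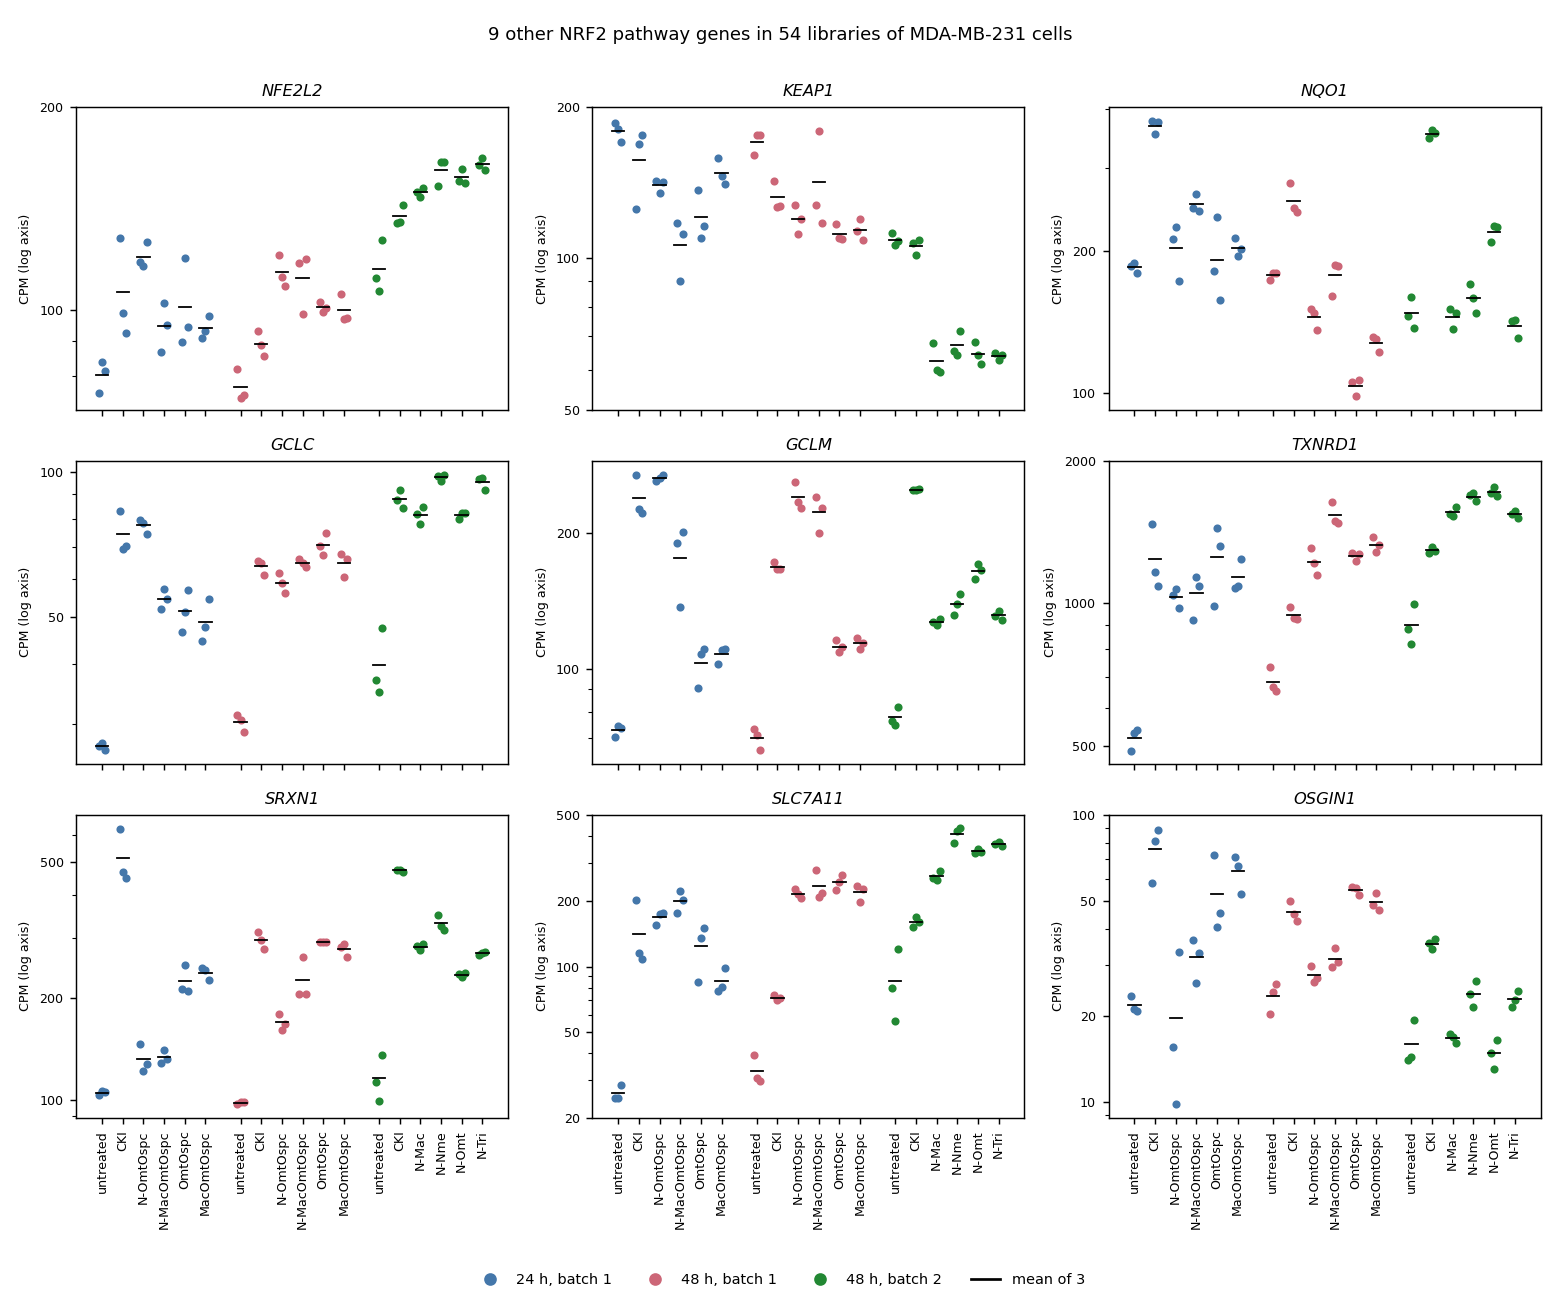
CPM (log axis) of the 9 members other than HMOX1 in each of the 54 libraries, a panel per gene. Points are libraries, short lines the means of 3, and colors mark the time and batch. SRXN1 stands highest with CKI at 24 h and in batch 2, SLC7A11 stands highest with mixtures at 48 h, NQO1 rises with CKI and little or not at all with most mixtures, and KEAP1 lies below untreated cells in most treated groups.

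Of the regulators, NFE2L2 was higher than in untreated cells in 11 of 14 comparisons, by small steps, and KEAP1 was lower in 12 of 14. At 24 h NFE2L2 stood at 75.6, 83.8 and 81.3 CPM in untreated cells and 128, 99.1 and 92.5 CPM with CKI. The groups did not overlap, and CKI replicate 1 was the highest by a clear margin. Its log2 fold change was 0.41 (SE 0.13, adjusted p = 0.0409), and 0.25 (adjusted p = 0.0116) without CKI replicate 1. Leaving out untreated replicate 1, 2 or 3 or CKI replicate 2 ended the call (0.37 to 0.47, adjusted p 0.0608 to 0.141). At 48 h NFE2L2 was higher by 0.25 (SE 0.045, adjusted p = 8.4e-05), with 0.22 in batch 1 alone and 0.28 in batch 2 alone. Each mixture raised it at 48 h, by 0.37 (MacOmtOspc) to 0.56 (N-OmtOspc) in batch 1 and 0.39 (N-Mac) to 0.48 (N-Tri) in batch 2. At 24 h N-OmtOspc was the only mixture called, at 118, 116 and 126 CPM (0.61, SE 0.13, adjusted p = 0.000743), and with library sizes alone as the scaling it was not (0.30, adjusted p = 0.102). OmtOspc, at 89.96, 119.7 and 94.4 CPM, was not called (0.34, adjusted p = 0.0876), and became called without CKI replicate 1 or without its own replicate 1 (0.34 to 0.42, adjusted p 0.0425 to 0.0444). In a fit of all 54 libraries OmtOspc (0.34, adjusted p = 0.00324) and N-MacOmtOspc (0.24, adjusted p = 0.0214) were both called. Without the 3 libraries that stood apart by their slopes, neither was. OmtOspc was then at 0.20 (adjusted p = 0.127) and N-MacOmtOspc at 0.19 (adjusted p = 0.0857), while N-OmtOspc was still called (0.60, adjusted p = 8.98e-06).

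KEAP1, the adaptor that marks NRF2 for degradation, was at 186, 181 and 170.4 CPM in untreated cells at 24 h and at 125, 169 and 176 CPM with CKI. Only CKI replicate 1 lay well below, and the change was not called (-0.19, adjusted p = 0.268; -0.054 without that library). At 48 h in batch 1 it was at 160.5, 176 and 176 CPM untreated and 143, 127 and 127 CPM with CKI, with no overlap. In batch 2 the values were 112, 106 and 108 CPM and 107, 102 and 109 CPM, which did overlap. The joint log2 fold change of -0.19 (SE 0.059, adjusted p = 0.00762) therefore joined -0.36 (adjusted p = 5.71e-05) in batch 1 with -0.023 (adjusted p = 0.657) in batch 2, and the test of that difference gave 0.34 (95% confidence interval 0.18 to 0.50, adjusted p = 0.00495).

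With the single-compound removals of batch 2 KEAP1 was lower by more. It was at 67.9, 60.1 and 59.3 CPM with N-Mac, 65.6, 64.3 and 71.7 with N-Nme, 68.2, 64.1 and 61.6 with N-Omt and 64.8, 62.8 and 64.3 with N-Tri. All 12 libraries lay below the untreated and CKI libraries of that batch, and the log2 fold changes against untreated cells ran from -0.80 (SE 0.055) to -0.72 (SE 0.055). In batch 1 at 48 h it was lower with OmtOspc (-0.62), MacOmtOspc (-0.59) and N-OmtOspc (-0.51). N-MacOmtOspc held 128, 179 and 118 CPM, its replicate 2 lying above every untreated library. That call (-0.27, SE 0.11, adjusted p = 0.0247) was lost without untreated replicate 2 or 3 or N-MacOmtOspc replicate 1 or 3 (-0.25 to -0.16, adjusted p 0.0685 to 0.169), and without its own replicate 2 the value was -0.48, still called. At 24 h KEAP1 was lower with N-MacOmtOspc at 118, 90.003 and 112 CPM (-0.74, SE 0.13, adjusted p = 0.000251) and with OmtOspc at 137, 109.7 and 116 CPM (-0.56, SE 0.13, adjusted p = 0.00713). Without the 3 libraries these were -0.64 (adjusted p = 6.07e-05) and -0.50 (adjusted p = 0.00154), and MacOmtOspc was called as well (-0.27, adjusted p = 0.0311). The smaller value of N-OmtOspc at 24 h (-0.33, SE 0.13, adjusted p = 0.035) lost its call without untreated replicate 1 or 2 or without any 1 N-OmtOspc library (adjusted p 0.0604 to 0.093).

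HMOX1, which encodes the inducible heme oxygenase, showed the largest range of log2 fold changes against untreated cells of the 10 members, 0.49 to 5.13. Untreated cells were at 22.9, 25.2 and 22.8 CPM at 24 h, 21.7, 26.2 and 25 CPM at 48 h in batch 1 and 28.3, 25.1 and 38.6 CPM at 48 h in batch 2. CKI brought it to 51.5, 44.2 and 50.6 CPM at 24 h and to 37.4, 31.1 and 32.5 and 43.5, 44 and 41.4 CPM in batches 1 and 2 at 48 h. Every CKI library was above the untreated libraries of its time and batch, although untreated replicate 3 of batch 2 came close. The log2 fold changes were 1.04 (SE 0.10, adjusted p = 0.000349) at 24 h and 0.49 (SE 0.082, adjusted p = 3.86e-05) at 48 h.

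Mixtures without Omt and Ospc took HMOX1 much higher. N-OmtOspc was at 792, 718 and 946 CPM at 24 h and 767, 650.2 and 632 CPM at 48 h. These were 35.1-fold and 28.1-fold of untreated cells (log2 fold change 5.13, SE 0.43, adjusted p = 3.9e-08, and 4.81, SE 0.10, adjusted p = 2.85e-20). N-MacOmtOspc, which lacks macrozamin too, was at 431, 91.3 and 429 CPM at 24 h and 329, 354 and 367 CPM at 48 h. Its replicate 2 at 24 h, a library already named as standing apart, was far below the others of its group and still above every untreated library. The log2 fold change was 3.75 (SE 0.41, adjusted p = 2.72e-06) at 24 h with that library and 4.19 (adjusted p = 7.32e-11) without the 3 libraries, and 3.84 (SE 0.098, adjusted p = 3.83e-19) at 48 h. Both mixtures were far above CKI as well, N-OmtOspc by 4.09 at 24 h and 4.34 at 48 h on the log2 scale and N-MacOmtOspc by 2.71 and 3.37, all called, with and without the 3 libraries.

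The mixtures made only of the left-out compounds held HMOX1 at 26.1 to 48.8 CPM. OmtOspc was at 44.6, 26.1 and 35.8 CPM at 24 h and 44.9, 38.5 and 40.0 CPM at 48 h, and MacOmtOspc at 48.8, 39.7 and 38.1 and 40.1, 42.8 and 39.4 CPM. At 48 h they were higher than untreated cells by 0.75 (SE 0.095, adjusted p = 5.49e-07) and 0.74 (SE 0.095, adjusted p = 9.9e-07) on the log2 scale. At 24 h neither was called (0.58, adjusted p = 0.304, and 0.83, adjusted p = 0.182), although no library overlapped untreated cells. N-MacOmtOspc replicate 2 is in the same fit. With that library left out, nearly the same log2 fold changes, 0.58 and 0.83, had adjusted p = 0.0175 and 0.0024. Without the 3 libraries they were 0.76 (adjusted p = 0.0014) and 0.83 (adjusted p = 0.000334).

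In batch 2 the removal of oxymatrine stood out for HMOX1. N-Omt was at 96.1, 90.4 and 92.1 CPM, N-Mac at 58.8, 54.4 and 55.3, N-Nme at 52.9, 40.7 and 43.1 and N-Tri at 42.8, 47.1 and 44 CPM. All 12 libraries were above untreated cells, and the N-Omt libraries above every other library of the batch. The log2 fold changes against untreated cells were 1.59 (SE 0.092, adjusted p = 1.98e-16) for N-Omt, 0.88 for N-Mac, 0.55 for N-Nme and 0.51 for N-Tri. Against CKI of the same batch N-Omt was higher by 1.10 (SE 0.089, adjusted p = 1.04e-12) and N-Mac by 0.40 (SE 0.092, adjusted p = 0.000309). In a fit of all 54 libraries N-Mac was not called against CKI (0.39, adjusted p = 0.187), nor N-Tri against untreated cells (0.54, adjusted p = 0.06). N-Nme and N-Tri were not called against CKI (differences of 0.064, 95% confidence interval -0.13 to 0.25, and 0.022, -0.17 to 0.21). N-Omt still contains Ospc, and at 48 h its HMOX1 was 3.02-fold of its untreated cells, where N-OmtOspc was 28.1-fold of its own. These 2 values come from different batches and were not compared by a test.

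**Figure D2:**
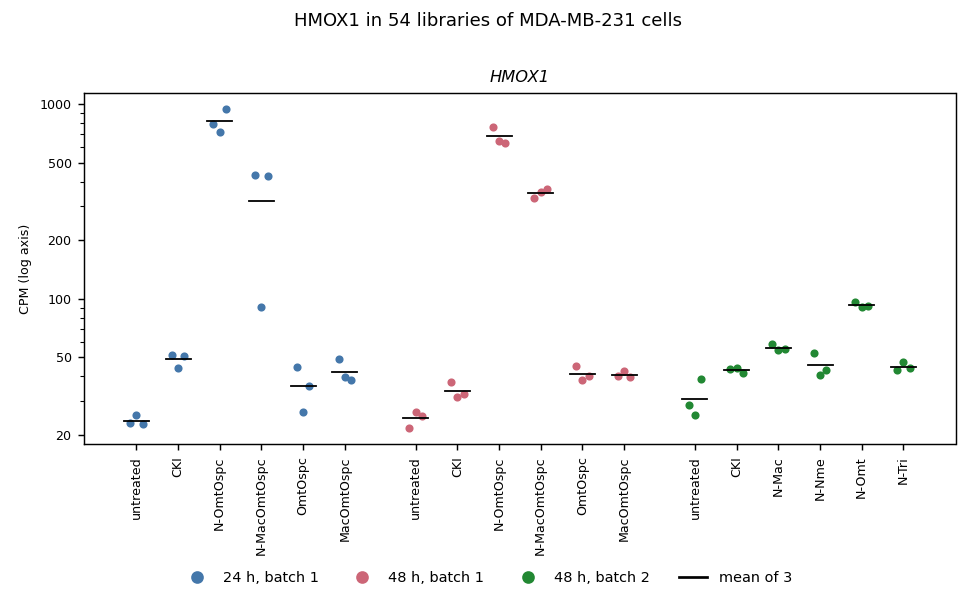
HMOX1 CPM (log axis) in each of the 54 libraries by treatment, with colors for time and batch and short lines for the mean of 3 libraries. N-OmtOspc libraries sit at 632 to 946 CPM, untreated libraries at 21.7 to 38.6 CPM, and N-MacOmtOspc replicate 2 at 24 h lies at 91.3 CPM below the other libraries of its group.

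NQO1, the NAD(P)H quinone reductase often used to read out NRF2, rose with CKI and with few mixtures. It was at 186, 188 and 180.2 CPM in untreated cells and 378, 353 and 376 CPM with CKI at 24 h, a log2 fold change of 1.00 (SE 0.076, adjusted p = 0.000115). At 48 h it went from 174, 179.9 and 180.0 to 278, 247 and 242 CPM in batch 1 and from 145, 160.1 and 138 to 347, 361 and 356 CPM in batch 2. The groups were well apart in both batches, and the step was larger in batch 2 (0.54 against 1.28, difference 0.75, 95% confidence interval 0.59 to 0.92, adjusted p = 2.38e-06). The joint value was 0.91 (SE 0.10, adjusted p = 4.47e-07).

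Of the 12 mixture groups 2 had higher NQO1 than untreated cells, N-MacOmtOspc at 24 h with 247, 264 and 243 CPM (0.45, SE 0.13, adjusted p = 0.0103; 0.41, adjusted p = 0.0057 without the 3 libraries) and N-Omt with 209, 226 and 225 CPM (0.57, SE 0.059, adjusted p = 3.05e-10). In 3 groups it was lower, all at 48 h in batch 1. OmtOspc was at 106, 98.6 and 107 CPM (-0.79, SE 0.072, adjusted p = 3.66e-09), MacOmtOspc at 132, 130.4 and 122 CPM (-0.49, SE 0.072, adjusted p = 6.41e-06) and N-OmtOspc at 151, 148 and 136 CPM (-0.30, SE 0.071, adjusted p = 0.000737). None of these 9 libraries overlapped untreated cells. The remaining 7 values were not called and lay between -0.12 (N-Tri) and 0.16 (N-OmtOspc at 24 h) on the log2 scale. N-Tri became called, lower, without untreated replicate 3 or N-Nme replicate 1 or 3 of batch 2 (-0.17 to -0.12), and N-Nme became called, higher, without untreated replicate 2 or its own replicate 3 (0.15 in both). Against CKI itself NQO1 was lower in all 12 mixture groups, with log2 differences of -0.53 (N-MacOmtOspc, 48 h) to -1.39 (N-Tri), with a largest adjusted p of 0.00389. The 4 comparisons of a time and batch share their 3 CKI libraries.

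GCLC and GCLM, the catalytic and modifier subunits of the enzyme that limits glutathione synthesis, were higher than untreated cells in all 14 comparisons. GCLC was at 26.9, 27.3 and 26.4 CPM untreated and 83.3, 69.4 and 70.3 CPM with CKI at 24 h (1.47, SE 0.10, adjusted p = 8.47e-05), and at 79.7, 78.6 and 74.5 CPM with N-OmtOspc (1.55, SE 0.11, adjusted p = 1.03e-08). Its joint log2 fold change with CKI at 48 h was 1.13 (SE 0.061, adjusted p = 2.87e-11). In batch 1 at 48 h it lay at 31.3, 30.4 and 28.9 CPM untreated, 65.5, 64.9 and 61.1 with CKI, 61.7, 58.9 and 56.2 with N-OmtOspc, 66.2, 64.8 and 63.6 with N-MacOmtOspc, 70.2, 67.3 and 74.8 with OmtOspc and 67.5, 60.6 and 66.1 with MacOmtOspc. All treated libraries were close together and clearly above the untreated ones. None of the 8 mixtures was called different from CKI in GCLC at 48 h, in either batch, with log2 differences of -0.12 (95% confidence interval -0.25 to 0.013, N-Omt) to 0.14 (0.0042 to 0.27, OmtOspc). At 24 h N-MacOmtOspc, OmtOspc and MacOmtOspc were lower than CKI, with differences of -0.44, -0.53 and -0.61 on the log2 scale, and of -0.38, -0.44 and -0.51 without the 3 libraries, all called.

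GCLM separated the treatments more. It was at 70.5, 74.7 and 73.7 CPM in untreated cells, 269, 227 and 221 with CKI, 261, 265 and 269.8 with N-OmtOspc, 190.4, 137 and 201 with N-MacOmtOspc, 90.3, 108 and 111 with OmtOspc and 102, 109.9 and 111 with MacOmtOspc at 24 h. The log2 fold changes were 1.71 (SE 0.10, adjusted p = 5.88e-05) with CKI, 1.89 (SE 0.14, adjusted p = 9.28e-09) with N-OmtOspc and 1.28 (SE 0.13, adjusted p = 2.03e-06) with N-MacOmtOspc (1.43 without the 3 libraries). The smaller rise with OmtOspc (0.50, SE 0.13, adjusted p = 0.0161) was lost without untreated replicate 1 or its own replicate 2 or 3 (adjusted p 0.0528 to 0.0731), and that with MacOmtOspc (0.56, SE 0.13, adjusted p = 0.0105) without untreated replicate 1 (adjusted p = 0.0521). At 48 h in batch 1 GCLM was at 73.4, 71.2 and 65.9 CPM untreated, 172, 166 and 166 with CKI, 259.9, 235 and 228 with N-OmtOspc and 241, 201 and 228 with N-MacOmtOspc. Both mixtures were above CKI with no overlap, by 0.52 (SE 0.070, adjusted p = 7.65e-07) and 0.40 (SE 0.070, adjusted p = 2.93e-05). OmtOspc at 116, 109 and 112 CPM and MacOmtOspc at 117, 111 and 114 CPM were below CKI, with differences of -0.60 and -0.58 on the log2 scale.

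In batch 2 GCLM was at 76.5, 74.9 and 82.2 CPM untreated and 249, 249.98 and 251 CPM with CKI, a larger step than in batch 1 (1.70 against 1.27, difference 0.43, 95% confidence interval 0.29 to 0.58, adjusted p = 0.000237). All 4 single-compound removals were between the untreated and the CKI libraries, at 125 to 171 CPM. They were lower than CKI, with differences of -0.61 (N-Omt) to -0.97 (N-Tri) on the log2 scale, with a largest adjusted p of 1.61e-13.

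SLC7A11, the cystine importer that feeds glutathione synthesis, rose in all 14 comparisons. At 24 h it was at 24.7, 24.7 and 28.4 CPM untreated and 202, 115 and 108 CPM with CKI, replicate 1 being the highest. The log2 fold change was 2.45 (SE 0.25, adjusted p = 0.00037), and 2.10 (adjusted p = 1.59e-08) without CKI replicate 1. The mixtures at 24 h were at 156, 175 and 177 CPM (N-OmtOspc), 177, 224 and 202 (N-MacOmtOspc), 84.7, 136 and 151 (OmtOspc) and 77, 80.6 and 98.4 (MacOmtOspc), all far above untreated cells, with log2 fold changes of 2.73, 2.96, 2.26 and 1.72. Without the 3 libraries these were 2.72, 2.87, 2.18 and 1.72, all called. N-OmtOspc (0.62, adjusted p = 0.00951) and N-MacOmtOspc (0.77, adjusted p = 0.0063) were then also higher than CKI at 24 h. With all libraries neither was called against CKI. MacOmtOspc was lower than CKI at 24 h (-0.74, SE 0.22, adjusted p = 0.0408), a call that ended without CKI replicate 1 (-0.38) and without any 1 of 8 other libraries of the fit (all 3 untreated, all 3 MacOmtOspc, N-OmtOspc replicate 1 and N-MacOmtOspc replicate 3).

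At 48 h all mixtures held SLC7A11 above CKI. In batch 1 it was at 38.9, 30.6 and 29.4 CPM untreated and 73.9, 70.0 and 71.2 with CKI, against 227, 216 and 208 with N-OmtOspc, 278, 209 and 219 with N-MacOmtOspc, 227, 245 and 266 with OmtOspc and 236, 199 and 228 with MacOmtOspc. No mixture library was near the CKI libraries. The log2 differences from CKI were 1.60, 1.71, 1.77 and 1.61, with a largest adjusted p of 3.94e-11. In batch 2 untreated cells already stood higher and farther apart, at 79.7, 56 and 121 CPM, with replicate 3 the highest. That library was also the highest untreated library of its batch for NFE2L2, HMOX1, GCLC, GCLM, TXNRD1, SRXN1 and OSGIN1. CKI was at 152, 170.2 and 162 CPM and the removals at 256, 251 and 278 (N-Mac), 374, 424 and 435 (N-Nme), 336, 349 and 337 (N-Omt) and 370.1, 378 and 361 (N-Tri). Every removal was above CKI, by 0.71 (N-Mac, SE 0.12) to 1.33 (N-Nme, SE 0.12) on the log2 scale.

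TXNRD1, cytosolic thioredoxin reductase, rose in all 14 comparisons by a narrow range of log2 fold changes, 0.51 to 1.27. At 24 h it was at 488, 531 and 540.1 CPM untreated and 1471, 1163 and 1086 CPM with CKI (1.26, SE 0.13, adjusted p = 0.0004; 1.11, adjusted p = 2.79e-07 without CKI replicate 1). No mixture was called different from CKI at 24 h, the log2 differences running from -0.25 (95% confidence interval -0.56 to 0.061, N-OmtOspc) to 0.011 (-0.30 to 0.32, OmtOspc). They ran from -0.15 (N-MacOmtOspc) to 0.039 (OmtOspc) without the 3 libraries, none called. With library sizes alone as the scaling N-OmtOspc was called against CKI, where the median gene shifted by -0.36. At 48 h CKI was at 980.3, 930.0 and 925 CPM over 734, 665 and 651 in batch 1 and at 1279, 1314 and 1291 over 884, 822 and 997 in batch 2, a joint log2 fold change of 0.51 (SE 0.045, adjusted p = 1.6e-08). All 8 mixtures of 48 h were above CKI, by 0.22 (N-Tri, adjusted p = 0.000528) to 0.69 (N-MacOmtOspc, adjusted p = 1.19e-08).

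SRXN1, which repairs over-oxidized peroxiredoxins, rose in all 14 comparisons with untreated cells and was lower with mixtures than with CKI in 10 of 12. At 24 h it was at 103, 107 and 106 CPM untreated and 628, 469 and 449.7 CPM with CKI, 4.91-fold of untreated cells (2.29, SE 0.14, adjusted p = 6.36e-05; 2.12, adjusted p = 2.63e-09 without CKI replicate 1). OmtOspc at 212, 250.2 and 210.2 CPM and MacOmtOspc at 244, 241 and 226 CPM lay in between. N-OmtOspc at 147, 122 and 128 CPM and N-MacOmtOspc at 129, 141 and 132 CPM were just above the untreated libraries. Their calls, 0.35 (SE 0.13, adjusted p = 0.0221) and 0.35 (SE 0.13, adjusted p = 0.0305), were lost without untreated replicate 1 or 3 or N-OmtOspc replicate 1 in the first case, and without any 1 untreated library or N-MacOmtOspc replicate 2 or 3 in the second (adjusted p up to 0.102). Against CKI all 4 mixtures were lower at 24 h, with differences of -1.94, -1.94, -1.21 and -1.13 on the log2 scale in the order N-OmtOspc, N-MacOmtOspc, OmtOspc and MacOmtOspc, and of -1.78, -1.81, -1.12 and -0.95 without the 3 libraries.

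At 48 h in batch 1 SRXN1 was at 97.6, 98.8 and 98.7 CPM untreated, 312, 295 and 278 with CKI, 293, 292 and 293 with OmtOspc and 282, 289 and 264 with MacOmtOspc. Both mixtures overlapped CKI, and their differences from it were -0.026 (95% confidence interval -0.19 to 0.14) and -0.099 (-0.27 to 0.067). N-OmtOspc at 179.7, 161 and 168 CPM and N-MacOmtOspc at 206, 264 and 206 CPM were lower than CKI, with differences of -0.80 (SE 0.081, adjusted p = 8.25e-09) and -0.40 (SE 0.081, adjusted p = 0.000158). In batch 2 it was at 113, 99.9 and 136 CPM untreated and 477, 476 and 469 CPM with CKI. The removals lay between those groups, at 283, 277 and 289 (N-Mac), 352, 325 and 317 (N-Nme), 235, 230.0 and 236 (N-Omt) and 268, 272 and 273 CPM (N-Tri), lower than CKI with differences of -0.54 (N-Nme) to -1.03 (N-Omt) on the log2 scale. The CKI step at 48 h was 1.60 in batch 1 and 2.04 in batch 2, a difference of 0.46 (95% confidence interval 0.25 to 0.66, adjusted p = 0.00401).

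OSGIN1, an oxidative stress induced growth inhibitor, rose with CKI, OmtOspc and MacOmtOspc at both times. At 24 h it was at 23.4, 21 and 20.8 CPM untreated and 58, 81 and 88.5 CPM with CKI (1.80, SE 0.16, adjusted p = 0.000208; 1.96, adjusted p = 2.38e-08 without CKI replicate 1). OmtOspc at 72.3, 40.6 and 45.7 CPM and MacOmtOspc at 71.3, 66.4 and 53.2 CPM were higher too (1.28, SE 0.32, adjusted p = 0.0113, and 1.55, SE 0.32, adjusted p = 0.0046; 1.43, adjusted p = 0.00553 and 1.55, adjusted p = 0.00201 without the 3 libraries). N-OmtOspc was at 15.6, 9.84 and 33.2 CPM, below untreated cells in 2 libraries and above them in the third, and was not called (-0.12, adjusted p = 0.755). Without that replicate 3 it was lower (-0.74, adjusted p = 0.0255), and without replicate 1 or 2 the sign turned (0.016 and 0.19). N-MacOmtOspc at 36.8, 25.9 and 33.1 CPM was not called either (0.56, adjusted p = 0.162). Both mixtures were lower than CKI at 24 h, with differences of -1.93 (SE 0.32, adjusted p = 8.81e-05) and -1.24 (SE 0.32, adjusted p = 0.00597). These differences were -2.09 and -1.27 without the 3 libraries, both called.

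At 48 h in batch 1 OSGIN1 was at 20.2, 24.3 and 25.8 CPM untreated, 50.0, 45.2 and 42.7 with CKI, 55.9, 55.9 and 52.6 with OmtOspc and 48.4, 53.5 and 46.8 with MacOmtOspc. With N-OmtOspc it was at 29.9, 26.2 and 27.1 CPM and with N-MacOmtOspc at 29.5, 34.3 and 30.8 CPM, above untreated cells and well below CKI. The N-OmtOspc call against untreated cells (0.24, SE 0.093, adjusted p = 0.0208) was lost without untreated replicate 1 or N-OmtOspc replicate 1 (0.13 to 0.18). In a fit of all 54 libraries neither it (0.24, adjusted p = 0.3) nor N-MacOmtOspc (0.43, adjusted p = 0.0689) was called. In batch 2 it went from 14, 14.4 and 19.2 CPM to 35.7, 34 and 36.9 CPM with CKI. N-Mac at 17.3, 16.9 and 16.1 CPM and N-Omt at 14.8, 13 and 16.5 CPM overlapped untreated cells and were not called (0.090, adjusted p = 0.412, and -0.11, adjusted p = 0.298). N-Mac became called without untreated replicate 3 (0.24, adjusted p = 0.021). N-Nme at 23.8, 21.4 and 26.3 and N-Tri at 21.5, 22.6 and 24.4 CPM were higher than untreated cells (0.57 and 0.49), and all 4 removals were lower than CKI, with differences of -0.60 (N-Nme) to -1.28 (N-Omt).

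Counted over the 10 members, each mixture moved most of them away from untreated cells. The share of all genes that were DE ran from 10.5% (MacOmtOspc at 24 h) to 78.2% (N-Omt). At 24 h 8 members were DE with N-OmtOspc (7 higher and 1 lower), where of 15191 genes 62.1%, 31.1% higher and 30.9% lower, were, and 8 with N-MacOmtOspc (7 higher and 1 lower), where 45%, 23.2% higher and 21.8% lower, were. With OmtOspc 7 were DE (6 higher and 1 lower) against 16.7%, 9.03% higher and 7.72% lower, of all genes, and with MacOmtOspc 6, all higher, against 10.5%, 5.61% higher and 4.84% lower. Without the 3 libraries each of these counts was 8 (7 higher and 1 lower), with backgrounds of 68.5%, 54.2%, 22.3% and 20.2%. At 48 h in batch 1 the counts were 10 (N-OmtOspc, 8 higher; background 76.6%, 38.3% higher and 38.3% lower), 9 (N-MacOmtOspc, 8 higher; 71.1%, 35.8% higher and 35.3% lower), 10 (OmtOspc, 8 higher; 57.8%, 29.1% higher and 28.7% lower) and 10 (MacOmtOspc, 8 higher; 51.2%, 25.7% higher and 25.5% lower). In batch 2 they were 8 (N-Mac, 7 higher; 72.4%, 36.9% higher and 35.4% lower), 9 (N-Nme, 8 higher; 71.3%, 35.9% higher and 35.4% lower), 9 (N-Omt, 8 higher; 78.2%, 38.4% higher and 39.9% lower) and 9 (N-Tri, 8 higher; 72.2%, 34.8% higher and 37.4% lower). At 48 h most genes tested were DE, and the counts of members are to be read against that.

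**Figure D3:**
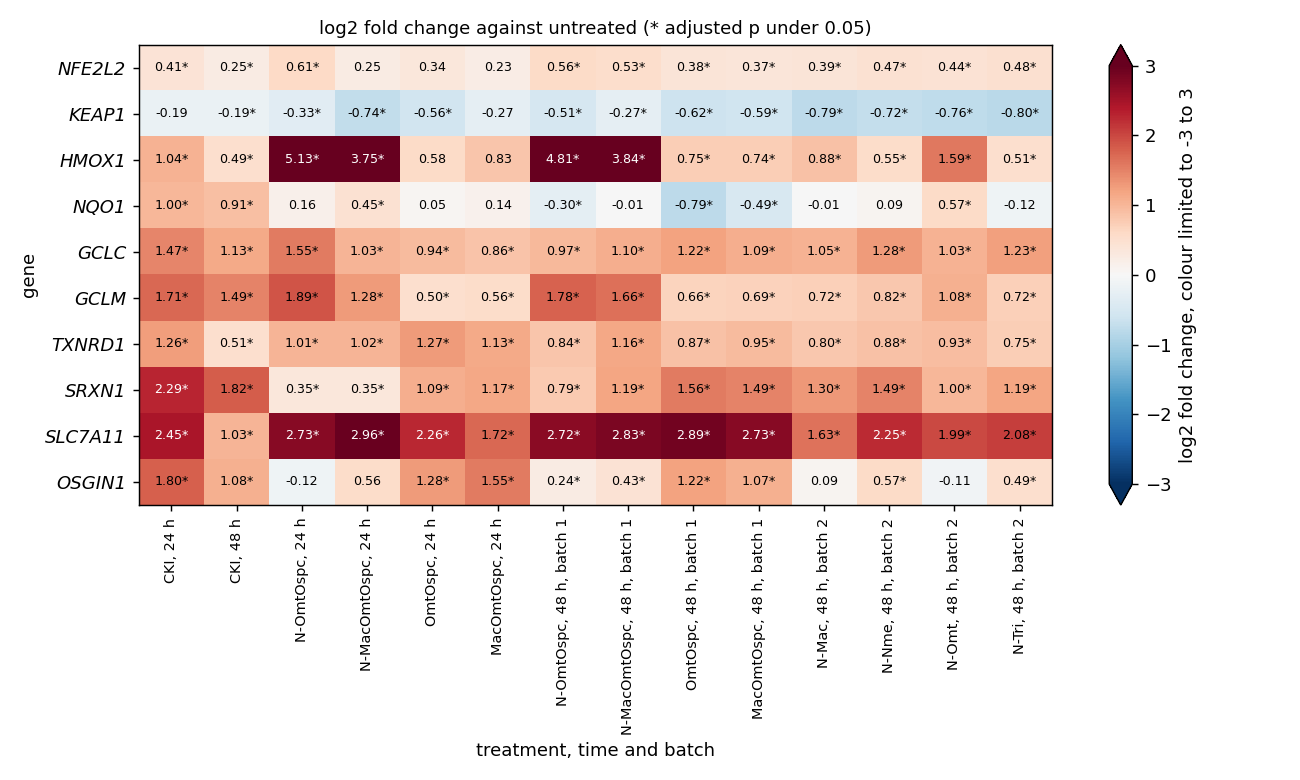
Log2 fold change of each member (rows) in the 14 comparisons with untreated cells of the same time and batch (columns), with an asterisk at adjusted p under 0.05. The color scale ends at -3 and 3. GCLC, GCLM, TXNRD1, SRXN1 and SLC7A11 are higher in every column, KEAP1 is lower in 12 of 14, and HMOX1 goes past the scale with N-OmtOspc and N-MacOmtOspc.

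Set against whole CKI instead, the members split by gene. NQO1 was lower in all 12 mixture groups, SRXN1 in 10, GCLM in 9 (and higher in 2), OSGIN1 in 8 (higher in 1), KEAP1 in 6 and GCLC in 3. HMOX1 was higher in 8, TXNRD1 in 8, SLC7A11 in 8 (lower in 1) and NFE2L2 in 6. The comparisons of a time and batch share their CKI libraries, so these are not independent. At 24 h the members DE against CKI numbered 4 with N-OmtOspc (background 58.7%, 29.2% higher and 29.5% lower), 7 with N-MacOmtOspc (35.7%, 17.6% higher and 18.1% lower), 4 with OmtOspc (8.49%, 4.47% higher and 4.02% lower) and 5 with MacOmtOspc (11.6%, 6.02% higher and 5.57% lower). Without the 3 libraries they numbered 8 (61.7%), 7 (43.7%), 5 (11.2%) and 4 (14.9%). The N-OmtOspc count then gained NFE2L2, GCLM and SLC7A11, higher, and KEAP1, lower. That of N-MacOmtOspc gained SLC7A11, higher, and lost GCLM. At 48 h the counts were 8 (N-OmtOspc, 73.1%, 36% higher and 37.1% lower), 8 (N-MacOmtOspc, 67.2%, 33.1% higher and 34.1% lower), 7 (OmtOspc, 51.8%, 25.9% higher and 25.8% lower) and 5 (MacOmtOspc, 47.6%, 24% higher and 23.6% lower) in batch 1. In batch 2 they were 9 (N-Mac, 69.4%, 35.1% higher and 34.3% lower), 8 (N-Nme, 71.5%, 35.8% higher and 35.7% lower), 9 (N-Omt, 76.3%, 37.1% higher and 39.2% lower) and 8 (N-Tri, 71.4%, 34.5% higher and 36.9% lower).

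Some of the smaller differences from CKI rested on 1 library. At 48 h in batch 1 HMOX1 was higher than CKI with OmtOspc (0.28, SE 0.092, adjusted p = 0.0159) and MacOmtOspc (0.26, SE 0.092, adjusted p = 0.0232), and OSGIN1 with OmtOspc (0.24, SE 0.086, adjusted p = 0.0233). Each of these calls ended without CKI replicate 2 or 3, without OmtOspc replicate 1 for the OmtOspc values (for OSGIN1 also its replicate 2), or without MacOmtOspc replicate 2, with adjusted p up to 0.112. In a fit of all 54 libraries these 3 calls ended as well (0.29, adjusted p = 0.369, 0.28, adjusted p = 0.409, and 0.25, adjusted p = 0.331). KEAP1 with OmtOspc (-0.25, SE 0.11, adjusted p = 0.0492) was lost without any 1 of the 15 libraries other than N-MacOmtOspc. The count for OmtOspc at 48 h fell from 7 to 4 without CKI replicate 2 or 3 or OmtOspc replicate 1. GCLM with N-MacOmtOspc at 24 h (-0.44, SE 0.13, adjusted p = 0.0152) was not called without CKI replicate 1 (-0.34) or without the 3 libraries (-0.19, adjusted p = 0.15). NFE2L2 with N-Mac (0.13, SE 0.051, adjusted p = 0.0291) was lost without CKI replicate 1 or 2 or N-Mac replicate 1 or 3 (0.11 to 0.12).

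**Figure D4:**
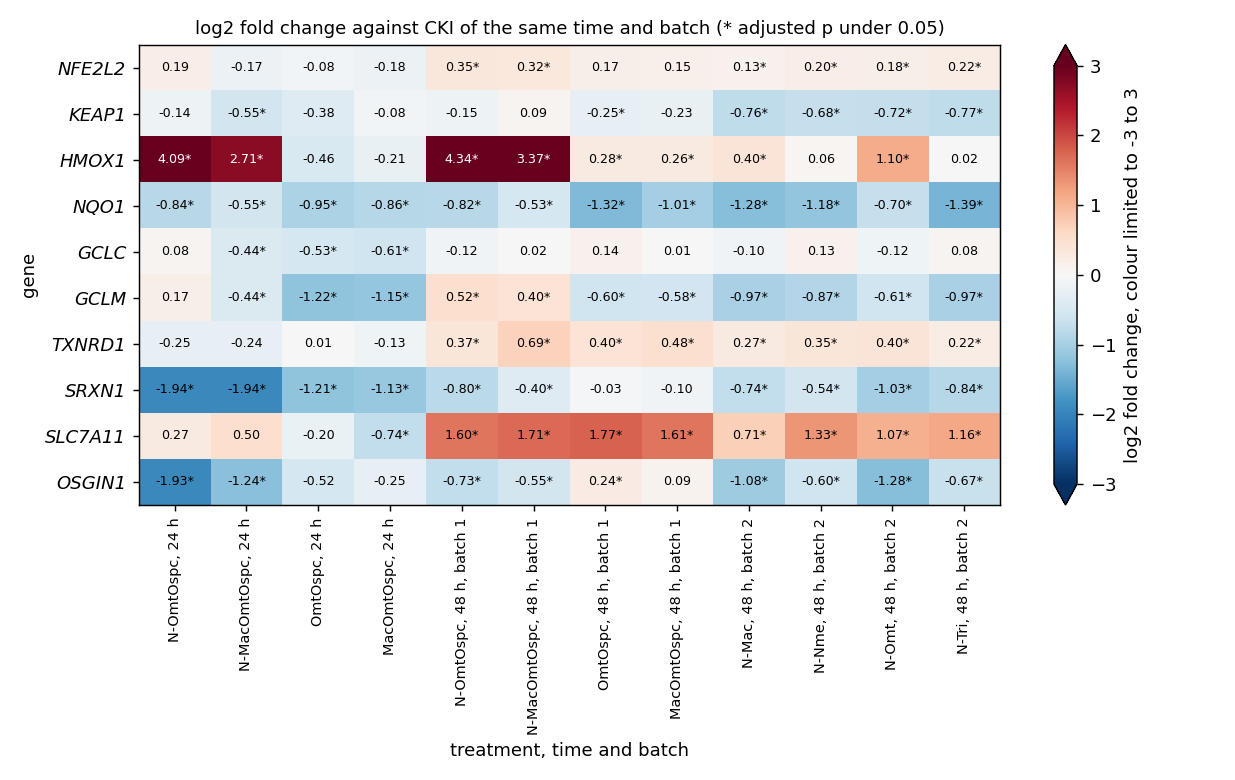
Log2 difference of each member (rows) between a mixture and CKI of the same time and batch, 12 comparisons (columns), with an asterisk at adjusted p under 0.05 and a color scale from -3 to 3. NQO1 is lower throughout, and SLC7A11 and TXNRD1 are higher in every 48 h column. HMOX1 is above the scale with N-OmtOspc at both times and with N-MacOmtOspc at 48 h.

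Macrozamin, a methylazoxymethanol glycoside, was the only named difference within 2 pairs of mixtures, and 4 comparisons were made. Added to Omt and Ospc (MacOmtOspc against OmtOspc), it went with few differences. At 24 h 0 of 10 members were called, as were 0% of all genes, and 2 members (KEAP1 and SLC7A11) had an unadjusted p under 0.05, while DESeq2 also called 0. The intervals were wide, for HMOX1 0.25 (95% confidence interval -0.53 to 1.03) and for SLC7A11 -0.54 (95% confidence interval -1.01 to -0.072, adjusted p = 0.775), so differences of that size were not detectable in that fit. Without the 3 libraries, 1 of which is OmtOspc replicate 2, 0 members were called, against 0.0195% of all genes. HMOX1 was then at 0.075 (95% confidence interval -0.22 to 0.37) and SLC7A11 at -0.46 (-0.85 to -0.075, adjusted p = 0.95). At 48 h NQO1 alone was called, higher with macrozamin by 0.30 (95% confidence interval 0.16 to 0.45, adjusted p = 0.0266), against 1.98% of all genes (1.46% higher). That call was lost without any 1 of the 6 libraries of the pair (adjusted p 0.0515 to 0.175) and in a fit of all 54 libraries (0.31, adjusted p = 0.251). HMOX1 differed by -0.013 (95% confidence interval -0.20 to 0.18) and SRXN1 by -0.073 (95% confidence interval -0.24 to 0.093).

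Within CKI depleted of Omt and Ospc, the mixture that kept macrozamin (N-OmtOspc against N-MacOmtOspc) had higher HMOX1 at both times. At 24 h the difference was 1.38 (95% confidence interval 0.61 to 2.16, adjusted p = 0.00518), and 0.94 (0.64 to 1.24) without the 3 libraries, 1 of which is N-MacOmtOspc replicate 2 (then 5 members called, against 51.8% of all genes). At 48 h it was 0.97 (95% confidence interval 0.79 to 1.15, adjusted p = 7.23e-09). In all, 5 members were called at 24 h, all higher with macrozamin, where 47.6% of all genes were (23.8% higher). Besides HMOX1 these were GCLM at 0.61, GCLC at 0.53, KEAP1 at 0.41 and NFE2L2 at 0.36 on the log2 scale. The KEAP1 call was lost without N-MacOmtOspc replicate 2, and that of NFE2L2 without N-OmtOspc replicate 1 or 3 or N-MacOmtOspc replicate 1 or 3. N-OmtOspc libraries of 24 h had TMM factors of 0.775 to 0.842, and with library sizes alone as the scaling the median gene shifted by -0.32 in this comparison, and GCLC, GCLM, KEAP1 and NFE2L2, still higher with macrozamin, were not called. The 3 members called with that scaling were HMOX1, higher with macrozamin (1.10), and NQO1 and OSGIN1, both lower. At 48 h 4 members were called, where 51% of all genes were, HMOX1 being higher with macrozamin and NQO1 (-0.29, 95% confidence interval -0.44 to -0.14, adjusted p = 0.00181), TXNRD1 (-0.32, 95% confidence interval -0.47 to -0.18, adjusted p = 0.000586) and SRXN1 (-0.40, 95% confidence interval -0.57 to -0.24, adjusted p = 0.000257) lower. The count was 7 without untreated replicate 1, whose fit it shares. Whether the macrozamin difference depends on the other compounds was not tested.

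Between 24 and 48 h in batch 1 the CKI effect on all 10 members became smaller or more negative, with differences of -0.16 (KEAP1) to -1.31 (SLC7A11) on the log2 scale, and 4 of these differences were called, against 1.56% of all genes (0.728% lower). They were SLC7A11 at -1.31 (95% confidence interval -1.91 to -0.72, adjusted p = 0.0339), TXNRD1 at -0.77 (95% confidence interval -1.07 to -0.47, adjusted p = 0.0193), SRXN1 at -0.69 (95% confidence interval -1.01 to -0.38, adjusted p = 0.0348) and NQO1 at -0.46 (95% confidence interval -0.66 to -0.26, adjusted p = 0.0323). The count hangs on single libraries. Without CKI replicate 1 of 24 h it was 9, all lower, against 9.45% of all genes, with every member but NFE2L2 called, among them OSGIN1 at -0.98 and HMOX1 at -0.52. It was 0 without untreated replicate 1 or 2 of 24 h, any 1 untreated library of 48 h or CKI replicate 2 or 3 of 48 h, 1 without untreated replicate 3 of 24 h and 2 without CKI replicate 1 of 48 h. With 1 library left out the values themselves ran, for SLC7A11, between -1.47 and -0.98 and for TXNRD1 between -0.86 and -0.64. Between the batches at 48 h 4 members differed in their CKI effect, against 13.8% of all genes (6.58% higher in batch 2). NQO1, GCLM and SRXN1 rose more in batch 2. KEAP1 was lower with CKI in batch 1 (-0.36) and not called in batch 2 (-0.023).

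Other genes of the pathway and of neighboring stress responses, 98 genes in 12 lists, were counted in the CKI comparisons. Of 96 tested, 41 were higher and 7 lower at 24 h, and 53 higher and 27 lower at 48 h, to be read against the backgrounds of 38.7% and 71.5% given above. The count of 48 at 24 h was 65 without CKI replicate 1, where 53% of all genes were called. The carbonyl and quinone reduction list had 9 higher and 1 lower of 13 tested at 24 h and 11 and 2 at 48 h (median log2 fold change 0.88 and 1.28). Its log2 fold changes at the earlier and the later time were 3.99 and 4.46 for AKR1B10, an aldo-keto reductase, and 3.05 and 3.06 for ALDH3A1, an aldehyde dehydrogenase, and pairs of values for the genes named next are in the same order. Genes that supply NADPH had 4 higher and 0 lower of 6 tested at 24 h and 5 and 0 at 48 h (median 0.54 and 0.53), among them malic enzyme ME1 (1.07 and 0.97). Regulators and partners of NRF2 had 6 higher and 1 lower of 12 tested at 24 h and 7 and 1 at 48 h (median 0.36 and 0.21), with SQSTM1, an autophagy receptor that binds KEAP1, at 1.38 and 0.92 and the small MAF protein MAFG at 1.07 and 0.75.

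The glutathione list was mixed, with 6 higher and 2 lower of 15 tested at 24 h and 9 and 4 at 48 h (median 0.23 and 0.38). The peroxidase GPX3 rose (0.99 and 1.37) and GPX1 was lower (-1.48 and -1.46). Thioredoxin and peroxiredoxin genes had 2 higher and 1 lower of 11 tested at 24 h and 3 and 4 at 48 h (median -0.011 and -0.046), PRDX1 rising (0.70 and 0.75) and TXNRD3 being lower (-0.73 and -0.52). Heme and iron genes had 3 higher and 0 lower of 8 tested at 24 h and 6 and 1 at 48 h (median 0.29 and 0.50), with ferritin light chain FTL at 1.37 and 1.42, uncertain because near-identical pseudogene copies can share its reads, and the heme transporter SLC48A1 at 1.14 and 1.38. Export pumps had 3 higher and 0 lower of 6 tested at 24 h and 4 and 1 at 48 h (median 0.32 and 0.69), with ABCC2 at 1.29 and 0.73 and ABCC5 at 0.90 and 0.71. Superoxide and catalase genes had 0 higher and 0 lower of 3 tested at 24 h and 2 and 1 at 48 h (median 0.11 and 0.23).

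Of the neighboring responses, the list of the aryl hydrocarbon receptor and its targets had 4 higher and 0 lower of 5 tested at 24 h and 4 and 1 at 48 h (median 1.87 and 1.75). The cytochrome P450 genes CYP1A1 (5.65 and 6.21) and CYP1B1 (2.34 and 2.55) led it. The gene not called at 24 h and lower at 48 h was the receptor AHR itself (-0.21, adjusted p = 0.215, at 24 h and -0.23, adjusted p = 7.29e-05, at 48 h), named after its values were seen. The ATF4 branch had 2 higher and 1 lower of 7 tested at 24 h and 0 and 5 at 48 h (median 0.42 and -0.55), with ATF4 itself at -0.48 and -0.38. Heat shock genes had 0 higher and 1 lower of 5 tested at 24 h and 0 and 5 at 48 h (median 0.27 and -0.18), HSPB1 at -1.17 and -0.96. Metal response genes had 2 higher and 0 lower of 5 tested at 24 h and 2 and 2 at 48 h (median 0.25 and -0.10), with MT1X at 0.86 and 1.04, a metallothionein whose copies are much alike and may share reads. The median of all genes tested was 0.014 at 24 h and 0.000705 at 48 h. The lists and the members were chosen with results of these data known, so no list stands as a finding of its own.

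Across the 18 group means, each centered on the mean of its time and batch, the members fell into patterns that the pathway name does not show. As a description over 18 groups, which share untreated cells, depth and batch, TXNRD1 followed SLC7A11 most closely (Pearson r = 0.911), and NFE2L2 followed SLC7A11 (0.893) and GCLC (0.862). SRXN1 followed OSGIN1 (0.853). KEAP1 ran against SLC7A11 (-0.788) and TXNRD1 (-0.685). HMOX1 and NQO1 had almost no relation (0.0123), and HMOX1 and OSGIN1 a negative one (-0.448). Of 9773 other genes whose mean level was 10 CPM or more, those most like HMOX1 were ETHE1 (0.987), MRPS24 (0.982) and ARC (0.981). TXNRD1 was most like ZSWIM6 (0.947), ZFYVE26 (0.926) and PLEKHA8 (0.924), GCLM like FAM214B (0.963), SLC36A1 (0.949) and GOLGA2 (0.943), and NQO1 like PPT2 (0.907), IL10RB (0.898) and TIMP1 (0.895). Over the 54 single libraries the r of these 12 genes was between 0.796 and 0.974, and their ranks between 1 and 22.

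Untreated cells of the 2 batches differed in the members themselves at 48 h. On the log2 scale, batch 2 minus batch 1, SLC7A11 differed by 1.37, NFE2L2 by 0.58, TXNRD1 by 0.40, GCLC by 0.40, HMOX1 by 0.34, SRXN1 by 0.24, GCLM by 0.15, NQO1 by -0.27, OSGIN1 by -0.56 and KEAP1 by -0.65. These are differences of mean levels with no test. CKI replicate 1 of 24 h was the highest of its 3 libraries for SLC7A11, NFE2L2, TXNRD1, GCLC, HMOX1, SRXN1 and GCLM and the lowest for KEAP1 and OSGIN1, the direction of that batch difference in 9 of the 10 members, all but NQO1. The part of this in the 24 h results was not tested beyond the values without that library.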

How the data were processed

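RNA of 54 cultures of MDA-MB-231 cells was sequenced as paired-end poly(A) libraries that the labels call strand-specific. The authors deposited raw read counts per gene, not normalized, for all libraries in a single table. Per the labels' processing notes the tools were Trim Galore 0.3.7, STAR 2.5.3a, Subread 1.5.2 with featureCounts and edgeR 3.22.3 on build hg19. The strand setting of the counting is not given in the sources used here, so reads of an overlapping antisense gene cannot be told apart. Multi-mapping reads could be split among near-identical genes. All columns belonged to a labelled sample.

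The paper's methods name no test for these counts. Here R 4.3.3 with edgeR 4.0.16 was used (filterByExpr, TMM, quasi-likelihood test, Benjamini-Hochberg over all genes tested). CKI and untreated cells were fitted alone at 24 h (6 libraries) and with a batch term at 48 h (12 libraries), mixtures in 3 fits of 18 libraries (24 h, and 48 h in each batch), and the differences between times and batches as interactions in 12 libraries. SE is the absolute log2 fold change divided by the root of F, and intervals are 95%. CPM were scaled by TMM over all 54 libraries (16072 genes). At these depths, from 17673537 to 26138924 counts, a member had at least 146 counts, and the common biological coefficient of variation was 0.048 to 0.175. The steps were tested on simulated data with 200 genes changed 2-fold. Of these, 99.5% were called in the 24 h CKI design (14249 genes) and 95.5% in the time interaction (14678 genes). Those shares hold for the spread set in the simulation, which was below that of the real 24 h fits. The power of the real fits was not measured. In the real libraries the common biological coefficient of variation was 0.138 for CKI at 24 h and 0.175 in the 24 h fit of 18 libraries.

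The members and the 12 pathway lists were chosen with earlier results of these data known. All members are named. From each list the 2 genes with the largest change at 48 h among those called in the same direction at both times are named (1 such gene is not reported here), and for HMOX1, TXNRD1, GCLM and NQO1 the 3 genes with the highest Pearson r (log2 CPM with a pseudocount of 0.5). Gene pairs among the members were read from the same centered means. Alternatives were RLE scaling, library sizes alone, DESeq2 1.42.0, other filters, a minimum fold change, other sets of libraries, a replicate block and each library left out in turn. Those for single genes against CKI, between macrozamin pairs and in interactions, and single genes without 3 libraries or within a batch, were added after the data were seen.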

Additional observations from a re-analysis of the deposited data

Results flagged for a closer look

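In 8 cases the CKI effect on a member differed between times or batches by a test of the difference itself (edgeR's quasi-likelihood test of the interaction). Between 24 and 48 h in batch 1 the log2 fold change of CKI against untreated cells differed, 48 h minus 24 h, by -0.46 for NQO1, -0.77 for TXNRD1, -0.69 for SRXN1 and -1.31 for SLC7A11. With 1 library left out these 4 calls ended in 7 to 9 of 12 cases, as the text on times says, and CKI replicate 1 of 24 h, which stood apart, enters all 4. Between the batches at 48 h it differed, batch 2 minus batch 1, by 0.34 for KEAP1, 0.75 for NQO1, 0.43 for GCLM and 0.46 for SRXN1. No group had enough samples for a test of single outlying values.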

How the results depend on the processing

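With RLE scaling 0 of 214 member calls over 30 comparisons changed, and with library sizes alone 8 ended, 9 were gained and 0 turned, while the median gene shifted by -0.36 to 0.12. Among the ended calls were KEAP1 with CKI at 48 h (-0.12) and NFE2L2 (0.30) and SRXN1 (0.042) with N-OmtOspc at 24 h. Among those gained were KEAP1 and TXNRD1 with N-OmtOspc against CKI at 24 h. Signs turned only in values near 0 that were not called. NQO1 with N-MacOmtOspc at 48 h, -0.0061, became 0.0058 with RLE and 0.0058 with DESeq2. With library sizes alone NQO1 with N-OmtOspc at 24 h became -0.16 and with N-Mac 0.058. Without the 3 libraries NQO1 with OmtOspc at 24 h became -0.13. With 1 library left out the ranges were -0.048 to 0.060 for NQO1 with N-MacOmtOspc at 48 h, -0.069 to 0.048 for NQO1 with N-Mac, -0.13 to 0.18 for NQO1 with OmtOspc at 24 h, -0.20 to 0.037 for OSGIN1 with N-Omt and -0.74 to 0.19 for OSGIN1 with N-OmtOspc at 24 h.

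The count of members DE between N-OmtOspc and N-MacOmtOspc at 24 h was 3 with library sizes alone (1 higher and 2 lower) and 2 with only their 6 libraries, in place of 5. For this and the other moved counts here, the share of all genes called under the alternative is mostly not given. A moved count is therefore no result about the members. In a fit of all 54 libraries OmtOspc against CKI at 48 h gave 4 in place of 7 and MacOmtOspc against OmtOspc at 48 h gave 0 in place of 1. That fit ended 11 calls of single members and added 4 against untreated cells, gains elsewhere not being followed by gene. Besides those given with the results it ended KEAP1 with OmtOspc against CKI at 48 h (-0.24, adjusted p = 0.0657) and NFE2L2 with N-Mac (0.12, adjusted p = 0.277) and N-Omt (0.19, adjusted p = 0.0609) against CKI, and added OSGIN1 with N-MacOmtOspc (0.56, adjusted p = 0.0225) and HMOX1 with MacOmtOspc (0.83, adjusted p = 0.012) against untreated cells at 24 h. N-OmtOspc against CKI at 24 h gave 8 in place of 4 without the 3 libraries, where 61.7% of all genes were called in place of 58.7%. With 1 library left out, the counts ran from 0 to 9 for the time interaction, 4 to 7 for N-OmtOspc against N-MacOmtOspc at 48 h, 4 to 9 for OmtOspc against CKI at 48 h and 0 to 1 for MacOmtOspc against OmtOspc at 48 h. Replicate numbers are shared between groups, but in none of 31 comparisons between groups did every same-numbered pair correlate above 0.1 in its deviations from the group means (r from -0.674 to 0.512), so the numbers were not taken to pair the libraries. Among pairs of groups not compared here, N-MacOmtOspc and OmtOspc at 24 h, each with a replicate 2 that stood apart, had every r above 0.1 (0.645, 0.624 and 0.123). The replicate block gave 0 in place of 4 for the time interaction and ended the calls of NFE2L2 with CKI at 24 h (0.40), SLC7A11 with MacOmtOspc against CKI at 24 h (-0.76) and KEAP1 with OmtOspc against CKI at 48 h (-0.25). It changed no other call of the values tried.

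Where a log2 change of 1 or more in either direction was also asked for, 5 (10.6%) members were DE with CKI at 48 h, the share of all genes tested that met the same 2 conditions standing in parentheses here and below. Only counts that moved clearly are listed. The 5 comparisons whose counts moved less or not at all, CKI at 24 h among them, are left out. Against untreated cells at 24 h there were 5 (33%) with N-OmtOspc, 5 (17.9%) with N-MacOmtOspc and 4 (4.94%) with OmtOspc, and at 48 h in batch 1 3 (33.9%) with N-OmtOspc, 4 (14.6%) with OmtOspc and 4 (11%) with MacOmtOspc, and in batch 2 5 (25.6%) with N-Omt and 3 with each other removal (16.3 to 19.1%). Against CKI at 24 h there were 3 (11.9%) with N-MacOmtOspc and 2 each with OmtOspc and MacOmtOspc (2.22 to 2.8%), and at 48 h 2 with each mixture of batch 1 (8.38 to 27.6%), 4 (22.8%) with N-Omt and 2 with each other removal (15.4 to 16.2%). Between N-OmtOspc and N-MacOmtOspc there were 1 (17.8%) at 24 h and 0 (8.61%) at 48 h, and 0 (0.0902%) between MacOmtOspc and OmtOspc at 48 h. A minimum fold change can only lower a count, and the cause of the other moves was not tested. With 3 libraries a group, the smaller differences sit within reach of a single library.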
